A study of Mus musculus with 8 samples.

Results

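Pax7, Myog, Mef2a, Mef2c, Id1 and Id3 are 6 of the 5457 genes in the deposited table of muscle-derived cell cultures, taken by name as the transcription factors of the myogenic programme and the Id proteins that inhibit it. All 6 were measured in every group. Cells were sorted by tdTomato fluorescence from the hind limb skeletal muscle of adult C57BL/6 mice, and their RNA was sequenced as 8 libraries, 2 for each of 4 groups. Tw2_48 and Tw2_GM cells came from mice of the genotype Tw2-CreERT2/+;R26-tdTO+, and Pax7_48 and Pax7_GM cells from mice of the genotype Pax7-CreERT2/+;R26-tdTO+. All mice received tamoxifen, in 3 treatments given every other day, 10 days before harvest, so both genotypes carried a Cre allele and the reporter and received the drug. The sorted cells of all groups were cultured on Matrigel. GM is taken to stand for the growth medium, Ham's F10 with 20% fetal bovine serum. The other groups carry 48 in their titles, with the unit of hours in the Tw2 titles alone, and the labels do not say which medium these cultures had, although a differentiation medium of 2% horse serum and bFGF is described. The reporter marks cells in which the named driver was active during tamoxifen treatment and their progeny, not cells that express the driver at harvest. What the Pax7-CreERT2 allele does to the expression of Pax7 itself is not given in the sources used here, nor are the sex of the mice and whether the 2 libraries of a group came from separate mice or cultures.

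Skeletal muscle regenerates from satellite cells, stem cells marked by the paired-box transcription factor Pax7. Their progeny leave the cell cycle when basic helix-loop-helix (bHLH) factors such as myogenin, encoded by Myog, pair with E proteins on E-box sequences and switch on contractile genes together with MEF2 factors, here Mef2a and Mef2c. Id proteins have the helix-loop-helix dimerization surface but lack the basic DNA-binding region, so that they hold E proteins away from the myogenic factors, and Id1 and Id3 are classic targets of Bmp and Smad signalling.

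The promoters of Myog and Mef2c are shown because both genes changed most unequally between the lineages below, and because E-boxes and MEF2 sites are the sequences through which these factors act. Each line holds the 250 bases before a transcription start in RefSeq (build GRCm38.p6), for Myog chr1:134289754-134290003 and for the first annotated start of Mef2c chr13:83503784-83504033, both on the plus strand. Capitals mark every match to the E-box (CANNTG) or to a short MEF2 core (TANNNNTA), searched on both strands, and no match overlaps another.
Myog: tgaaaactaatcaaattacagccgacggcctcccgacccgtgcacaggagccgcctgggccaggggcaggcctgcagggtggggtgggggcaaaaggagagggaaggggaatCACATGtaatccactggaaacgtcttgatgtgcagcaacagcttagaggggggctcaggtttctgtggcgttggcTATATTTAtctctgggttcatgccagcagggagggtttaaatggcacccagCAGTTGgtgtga
Mef2c: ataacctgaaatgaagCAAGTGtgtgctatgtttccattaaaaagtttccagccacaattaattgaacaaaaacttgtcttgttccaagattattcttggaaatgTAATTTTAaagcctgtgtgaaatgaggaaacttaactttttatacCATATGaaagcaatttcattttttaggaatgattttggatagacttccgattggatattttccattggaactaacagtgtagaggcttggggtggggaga
The Myog window holds the E-boxes CACATG, from −138 to −133 relative to the start, and CAGTTG, from −12 to −7, with the MEF2 core TATATTTA from −63 to −56 between them. The Mef2c window holds the E-boxes CAAGTG and CATATG and the core TAATTTTA. Other annotated starts of Mef2c differ: the second holds 1 core and no E-box, and the third 1 E-box and 2 cores. Which start these cells used was not determined. A stricter MEF2 consensus, found in 2.92% of RefSeq windows, had no match in the Myog and Mef2c windows shown. The E-box and the MEF2 core are short and common. Of 32851 promoter windows in RefSeq, 66.2% hold an E-box and 34.4% a MEF2 core, against 55.9% and 21.9% of the 5368 windows of genes in the deposited table. The windows of Pax7, Id3 and Mef2a hold neither motif, which says only that these letters are not in those stretches. A promoter was found in the table for 5 of the 6 genes. On the same build, GENCODE M21 places Myog on chromosome 1 (134289989 to 134292548, plus strand), Mef2c on chromosome 13 (83504034 to 83667080, plus), Mef2a on chromosome 7 (67231163 to 67372858, minus), Pax7 on chromosome 4 (139737062 to 139833528, minus), Id3 on chromosome 4 (136143497 to 136145755, plus) and Id1 on chromosome 2 (152736251 to 152737410, plus).

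Levels are in CPM, reads scaled to the size of the library. The deposited values are group means, and the value of each library was recovered from them. The 2 libraries of a group are called the deeper and the shallower, always given in that order. Implied depths ran from 5.18 to 13.7 M reads, with the 2 Pax7_GM libraries the shallowest and least alike (r of 0.962, against 0.994 to 0.996 in the other groups). Every gene in the table differs at least 2-fold from Tw2_GM in another group by the authors' means, so large changes are common among these genes and counts are read against the share of all genes called. P-values and standard errors measure the spread between the libraries of a group, pooled over the 4 groups, which may be technical. The SD of the log2 ratio of the 2 libraries was 0.498 in Pax7_GM, against 0.169 to 0.196 in the other groups. The Pax7_GM libraries thus enter the standard errors of comparisons without them as well. Fold changes are on the log2(CPM + 1) scale, tested with limma over 5452 genes and called at an adjusted p under 0.05.

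Per kilobase of transcript, the order of the 6 genes turned over between the cultures. In Tw2_48, Myog stood first at a mean of 2527 CPM per kb, followed by Mef2a at 251, Mef2c at 32.0, Id1 at 11.3, Id3 at 3.47 and Pax7 at 2.18. In Tw2_GM, Id3 stood first at 360 CPM per kb, followed by Id1 at 253, Mef2a at 91.4, Myog at 66.5, Pax7 at 18.9 and Mef2c at 0.891. Pax7_48 had the same order as Tw2_48, with Myog at 1584 CPM per kb, Mef2a at 81.0, Mef2c at 60.9, Id1 at 18.3, Id3 at 10.8 and Pax7 at 1.67. In Pax7_GM, Id3 was at 456 CPM per kb, Id1 at 340, Myog at 264, Mef2a at 21.6, Pax7 at 19.6 and Mef2c at 7.53. The neighbours in these orders were separate in both libraries, except that Mef2a (15.5 and 27.6 CPM per kb) spanned Pax7 (20.1 and 19.1 CPM per kb) in Pax7_GM. The orders rest on the principal transcript of each gene, which has 2664 bases for Mef2a. Its longest transcript has 5538 bases, so the place of Mef2a in the orders depends on the length chosen. In these bulk libraries, fewer cells of a type and less RNA per cell cannot be told apart.

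**Figure D1:**
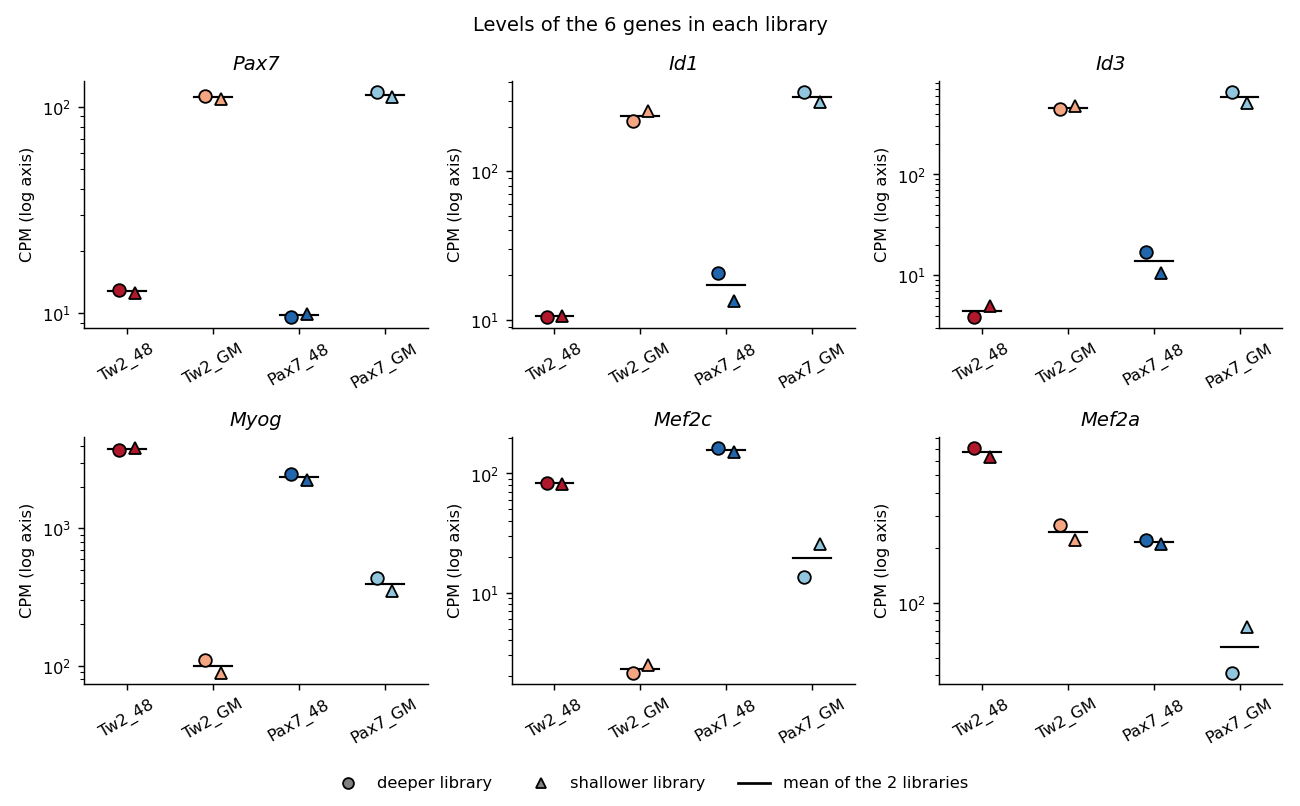
CPM of each gene on a log axis in the 4 groups, Tw2_48, Tw2_GM, Pax7_48 and Pax7_GM from left to right, with a circle for the deeper library, a triangle for the shallower and a line at their mean. Myog, Mef2c and Mef2a are higher and Id1, Id3 and Pax7 lower in the 48 groups of both lineages.

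Between the cultures, the myogenic activators rose and the satellite cell factor and the Id genes fell, in both lineages. Myog, Mef2c and Mef2a were called higher in Tw2_48 than in Tw2_GM and Pax7, Id1 and Id3 lower, and the same split was found in Pax7_48 against Pax7_GM. Of all genes tested, 35.3% were called higher and 48.9% lower in Tw2_48 against Tw2_GM. In Pax7_48 against Pax7_GM those shares were 38.8% and 40.5%, so a call as such was common in these comparisons and the sizes below say more. The median log2 fold change of the 6 genes was −0.78 in the Tw2 lineage, against −0.49 over all genes, and −0.74 in the Pax7 lineage, against 0.01 over all genes. With 3 genes higher and 3 lower, each median lies between the rises and the falls and is the change of no gene. The direction and call of each of the 6 genes in both lineages held under every alternative of scaling, pseudocount, filter, model, GC correction and left-out library.

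Pax7 measured 13.0 and 12.6 CPM in the Tw2_48 libraries, against 113 and 109 CPM in those of Tw2_GM. It measured 9.58 and 9.95 CPM in the Pax7_48 libraries, against 117 and 112 CPM in those of Pax7_GM. The libraries of a culture were thus close to each other in both lineages and far from those of the other culture. On the log2 scale it fell by 3.02 ± 0.12 (± standard error throughout, n = 2 libraries in each group; limma adjusted p = 8.70e-08) in the Tw2 lineage and by 3.42 ± 0.12 (limma adjusted p = 2.02e-07) in the Pax7 lineage, 8.69-fold and 11.7-fold lower by mean CPM. The 2 changes differed by 0.40 ± 0.17 (95% interval 0.01 to 0.79, limma adjusted p = 0.130), which did not pass the test. That difference was called with size factors (0.66) and quantile normalization (0.63).

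Myog, the bHLH factor of the step into terminal differentiation, reached 3697 and 3859 CPM in the Tw2_48 libraries, against 110 and 89.1 CPM in those of Tw2_GM. In the Pax7 lineage it had 2491 and 2247 CPM in the Pax7_48 libraries, against 439 and 351 CPM in those of Pax7_GM. The 2 Tw2_48 libraries were the highest of all 8 and the 2 Tw2_GM libraries the lowest, so the Tw2 range enclosed the Pax7 range at both ends. The log2 fold change was 5.24 ± 0.16 (limma adjusted p = 3.26e-08) in the Tw2 lineage, 38.0-fold by mean CPM. In the Pax7 lineage it was 2.59 ± 0.16 (limma adjusted p = 1.97e-06), a CPM ratio of 6.00.

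Mef2c, a MEF2 factor that rises in differentiating muscle, had 83.7 and 81.8 CPM in the Tw2_48 libraries, against 2.14 and 2.48 CPM in those of Tw2_GM, where the values rest on 26 and 28 reads. It had 164 and 151 CPM in the Pax7_48 libraries, against 13.5 and 25.5 CPM in those of Pax7_GM. Pax7_48 was highest and Tw2_GM lowest, and no groups overlapped. Its log2 fold changes were 4.66 ± 0.25 in the Tw2 lineage (limma adjusted p = 4.86e-07) and 3.01 ± 0.25 in the Pax7 lineage (limma adjusted p = 9.02e-06). By mean CPM these were 35.9-fold and 8.08-fold.

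Mef2a, the more broadly expressed MEF2 factor, had 708 and 631 CPM in the Tw2_48 libraries, against 267 and 220 CPM in those of Tw2_GM. It had 221 and 211 CPM in the Pax7_48 libraries, against 41.3 and 73.5 CPM in those of Pax7_GM. Tw2_48 alone stood highest, while the shallower Tw2_GM library (220 CPM) lay between the 2 Pax7_48 libraries. Its log2 fold change was below those of Myog and Mef2c, which was not tested, at 1.46 ± 0.25 in the Tw2 lineage (limma adjusted p = 0.000585) and 1.95 ± 0.25 in the Pax7 lineage (limma adjusted p = 0.00012). Mef2a shares 76168 bases of the genome with Lysmd4 on the opposite strand, and whether reads were assigned by strand is not stated. Lysmd4 had authors' means of 18.8 CPM in Tw2_48, 8.14 CPM in Tw2_GM, 23.3 CPM in Pax7_48 and 8.502 CPM in Pax7_GM in the authors' deposited table, well under those of Mef2a in each group, and its part in the values of Mef2a was not tested.

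Id1 fell to 10.4 and 10.6 CPM in the Tw2_48 libraries, against 217 and 255 CPM in those of Tw2_GM. In the Pax7 lineage it had 20.8 and 13.4 CPM in the Pax7_48 libraries, against 341 and 293 CPM in those of Pax7_GM. Both cultures were far apart in each lineage. The log2 fold change was −4.36 ± 0.21 in the Tw2 lineage (limma adjusted p = 2.32e-07) and −4.17 ± 0.21 in the Pax7 lineage (limma adjusted p = 5.37e-07), 22.4-fold and 18.6-fold lower by mean CPM.

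Id3 had the largest change of the 6 genes. It had 3.86 and 5.002 CPM in the Tw2_48 libraries (53 and 47 reads), against 442 and 478 CPM in those of Tw2_GM. In the Pax7 lineage it had 17.0 and 10.5 CPM in the Pax7_48 libraries, against 652 and 514 CPM in those of Pax7_GM. The 48 libraries of both lineages were thus 1 order of magnitude or more under every GM library, with Tw2_48 under Pax7_48. The log2 fold change was −6.41 ± 0.23 (limma adjusted p = 5.83e-08) in the Tw2 lineage and −5.33 ± 0.23 (limma adjusted p = 3.29e-07) in the Pax7 lineage. In each lineage Id3 ranked 7 from the bottom among the 5452 genes. By mean CPM it was 104-fold lower in Tw2_48 than in Tw2_GM and 42.4-fold lower in Pax7_48 than in Pax7_GM.

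**Figure D2:**
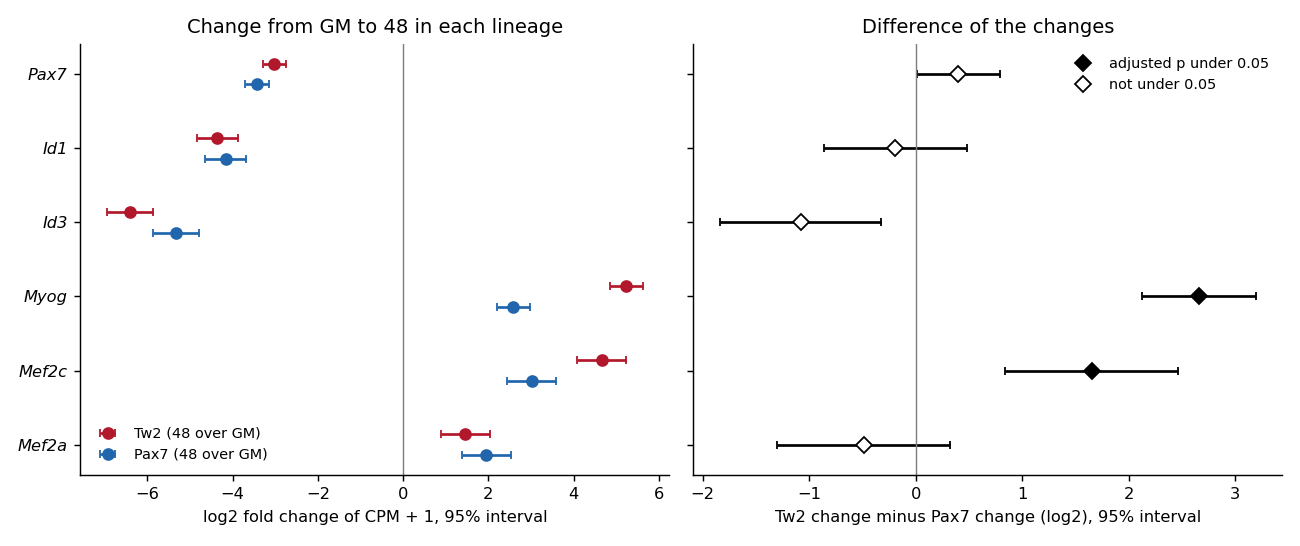
Log2 fold change of each gene, 48 over GM, in the Tw2 lineage and the Pax7 lineage (left panel), and the Tw2 change minus the Pax7 change (right panel, filled where the limma adjusted p is under 0.05), with 95% intervals. Myog (5.24 and 2.59) and Mef2c (4.66 and 3.01) show the widest gaps between the lineages.

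Myog and Mef2c rose further in the Tw2 lineage than in the Pax7 lineage, by the test of the difference itself. That difference was 2.65 ± 0.23 for Myog (limma adjusted p = 0.000325) and 1.65 ± 0.35 for Mef2c (limma adjusted p = 0.0158). These 2 of the 6 genes were called, both higher, against 9.72% of all genes called higher and 9.01% lower. With size factors 74.6% of the genes called were higher, against 51.9% as deposited, and with the GC and length trend removed 34.1%. For Myog the difference ran from 2.25 to 3.28 over the other settings and was called under each of them, left-out libraries included. The call of Mef2c ended with a pseudocount of 5 (0.81, limma adjusted p = 0.0695), and in each of the 6 fits without a Tw2_GM, Tw2_48 or Pax7_48 library (limma adjusted p of 0.0525 to 0.0722), which leave fewer degrees of freedom.

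None of the other 4 was called by limma as deposited, although Pax7 and Id3, 2 of these, had an unadjusted p under 0.05. Id3 was at −1.08 ± 0.33 (95% interval −1.84 to −0.32, limma adjusted p = 0.0554), just outside the threshold, and was called with a mean-variance trend (limma adjusted p = 0.0465), with limma-voom (−1.32) and with the GC trend removed (−1.48). Mef2a was at −0.49 ± 0.35 (95% interval −1.30 to 0.32) and Id1 at −0.19 ± 0.29 (95% interval −0.86 to 0.48). Without the shallower Pax7_GM library, Mef2a was at −0.90 (limma adjusted p = 0.00213) and 5 of the 6 genes were called. That library held Mef2a at 73.5 CPM against 41.3 CPM in the deeper one, and Mef2c at 25.5 against 13.5 CPM.

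**Figure D3:**
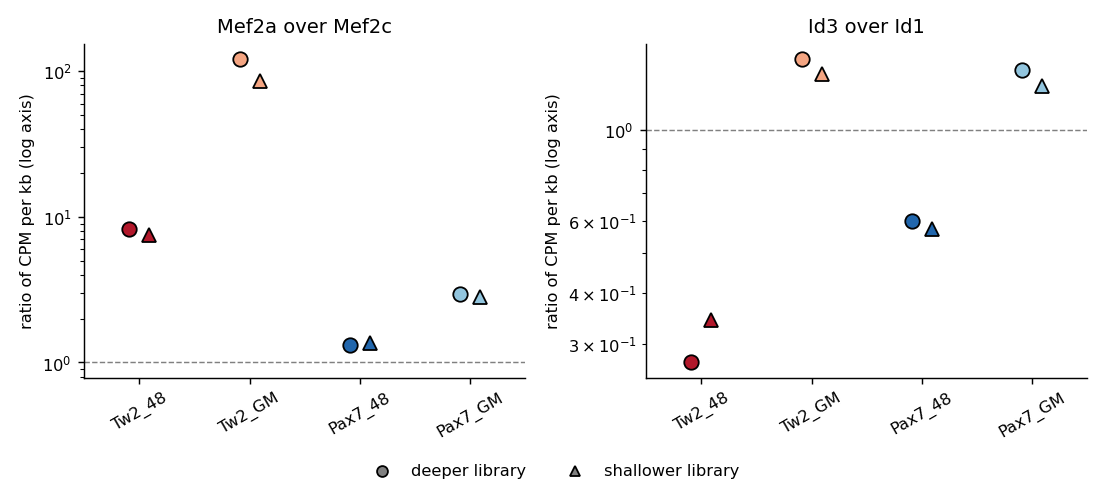
Ratio of Mef2a to Mef2c and of Id3 to Id1, each in CPM per kilobase, on log axes with a point for each library in Tw2_48, Tw2_GM, Pax7_48 and Pax7_GM from left to right. Mef2a exceeds Mef2c most in Tw2_GM (121 and 86.3), and Id3 exceeds Id1 in the GM groups and falls below it in the 48 groups.

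The 2 MEF2 genes stood in very different proportion in the lineages. Per kilobase, the level of Mef2a was 8.22 and 7.49 times that of Mef2c in Tw2_48 and 121 and 86.3 times in Tw2_GM. It was 1.31 and 1.35 times that of Mef2c in Pax7_48 and 2.96 and 2.81 times in Pax7_GM. The ratio was therefore lower in the 48 culture of each lineage, and every Tw2 library lay above every Pax7 library. The 2 Pax7_GM libraries, unlike in the level of either gene, gave close ratios.

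The 2 Id genes traded places between the cultures. The level of Id3 per kilobase was 0.271 and 0.343 times that of Id1 in Tw2_48 and 1.49 and 1.37 times in Tw2_GM. It was 0.599 and 0.573 times that of Id1 in Pax7_48 and 1.40 and 1.28 times in Pax7_GM. Id3 was thus above Id1 in all 4 GM libraries and below it in all 4 libraries of the 48 cultures, lowest in Tw2_48. The 2 genes are close in GC content of the transcript (55.6% for Id3 and 55.2% for Id1). These ratios were described and not tested.

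Between the lineages in growth medium, Mef2a was higher and Myog and Mef2c were lower in Tw2 cells. Mef2a had 267 and 220 CPM in the Tw2_GM libraries, against 41.3 and 73.5 CPM in those of Pax7_GM (log2 fold change 2.12 ± 0.25, limma adjusted p = 0.000178). Myog differed by −1.98 ± 0.16 (limma adjusted p = 5.26e-05) and Mef2c by −2.57 ± 0.25 (limma adjusted p = 9.27e-05), with no overlap of the libraries of either gene. Scaling by size factors, quantile normalization and removal of the GC trend kept these directions and calls. The sizes varied more, and Myog ran from −2.84 with size factors to −0.89 with the GC and length trend of the principal transcript removed and −0.80 with that of the longest. Mef2c ran from −4.03 with the trend of the longest transcript removed to −1.70 with a pseudocount of 5. Mef2a was at 1.25 with size factors and at 0.87 with the trend of the longest transcript removed.

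Pax7 and both Id genes did not pass the test between the lineages in growth medium as deposited, and had a direction that depended on the scaling. Pax7 was at −0.046 ± 0.12 (95% interval −0.32 to 0.23, limma adjusted p = 0.738), and its Tw2_GM and Pax7_GM libraries overlapped. Id1 was at −0.43 ± 0.21 (95% interval −0.90 to 0.05) and Id3 at −0.33 ± 0.23 (95% interval −0.87 to 0.20), both with every Tw2_GM library below every Pax7_GM library. Size factors gave −0.91 for Pax7, −1.30 for Id1 and −1.20 for Id3, all called, while removal of the GC trend gave 0.50, 0.83 and 0.84, all called in the other direction. Of the 6 genes 1 was called higher, against 48.7% of all genes, and 2 lower, against 26.0%. Of the genes called in this comparison 65.2% were higher in Tw2_GM as deposited, 81.5% after removal of the GC trend, 47.2% after quantile normalization and 32.1% under size factors. Size factors shifted the median of all genes by −0.84, quantile normalization by −0.48 and the GC correction by 0.18, from a median of 0.34.

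The GC content of a transcript moved with the lineage difference across all genes. The median log2 fold change of Tw2_GM against Pax7_GM was 1.85 in the fifth of genes poorest in GC and −0.39 in the richest. Myog, Id1, Id3 and Pax7 are rich in GC, between percentiles 76.0 and 80.5 of the genes in the table, and Mef2c (34.6) and Mef2a (30.3) are poor. The 3 genes that reversed when the trend was removed were all in the GC-rich set. As deposited they stood between −0.43 and −0.046, and the fitted trend set how far each moved. Their reversal was thus no test of GC. The correction, elsewhere called removal of the GC trend, took out GC and transcript length together. The difference in growth medium rose with length across all genes (Spearman correlation 0.41, against −0.70 for GC). Of the genes that reversed, Id1 (length percentile 4.05) and Id3 (8.63) are short and Pax7 (82.1) is long. The change between the cultures differed by GC as well, without a steady trend. Its median in 5 equal sets of genes, from poor to rich in GC, was −0.54, −0.72, −0.86, 0.62 and 0.56 in the Tw2 lineage. In the Pax7 lineage it was 0.20, −0.25, −0.59, 0.44 and 0.44. The parts of GC and length in the lineage values were not separated, and were not tested beyond this correction.

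In the 48 cultures all 6 genes were called between the lineages, where 3568 of all 5452 genes were called. Mef2a (1.63 ± 0.25, limma adjusted p = 0.00145), Myog (0.67 ± 0.16, limma adjusted p = 0.00806) and Pax7 (0.35 ± 0.12, limma adjusted p = 0.0303) were higher in Tw2_48 than in Pax7_48. Of all genes 43.3% were called higher and 22.1% lower. Lower in Tw2_48 were Id3 (−1.41 ± 0.23, limma adjusted p = 0.0018), Mef2c (−0.92 ± 0.25, limma adjusted p = 0.0126) and Id1 (−0.62 ± 0.21, limma adjusted p = 0.0288). The values of Mef2a, Mef2c and Id3 kept direction and call under all 3 corrections of scale or GC. Myog was at 0.015 with size factors (limma adjusted p = 0.941) and at 1.39 with the GC trend removed, and other calls were lost as well. Pax7 was at −0.25 with size factors (limma adjusted p = 0.112) and at 0.021 with quantile normalization (limma adjusted p = 0.891), and Id1 was at 0.22 with the GC trend removed (limma adjusted p = 0.375). Left-out libraries also ended calls: 6 of the 8 fits lost Pax7, 4 lost Mef2c, 3 lost Id1 and 1, without the shallower Pax7_48 library, lost Myog (0.60, limma adjusted p = 0.0616). Of the genes called in this comparison 66.2% were higher in Tw2_48 as deposited, 78.4% after removal of the GC trend, 48.4% after quantile normalization and 26.4% under size factors.

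The order of the lineages in Myog thus depended on the culture, and that in Mef2c did not. Myog was lower in Tw2_GM than in Pax7_GM and higher in Tw2_48 than in Pax7_48, except that the second difference was near 0 with size factors. Mef2c was lower in the Tw2 cells of both cultures.

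**Figure D4:**
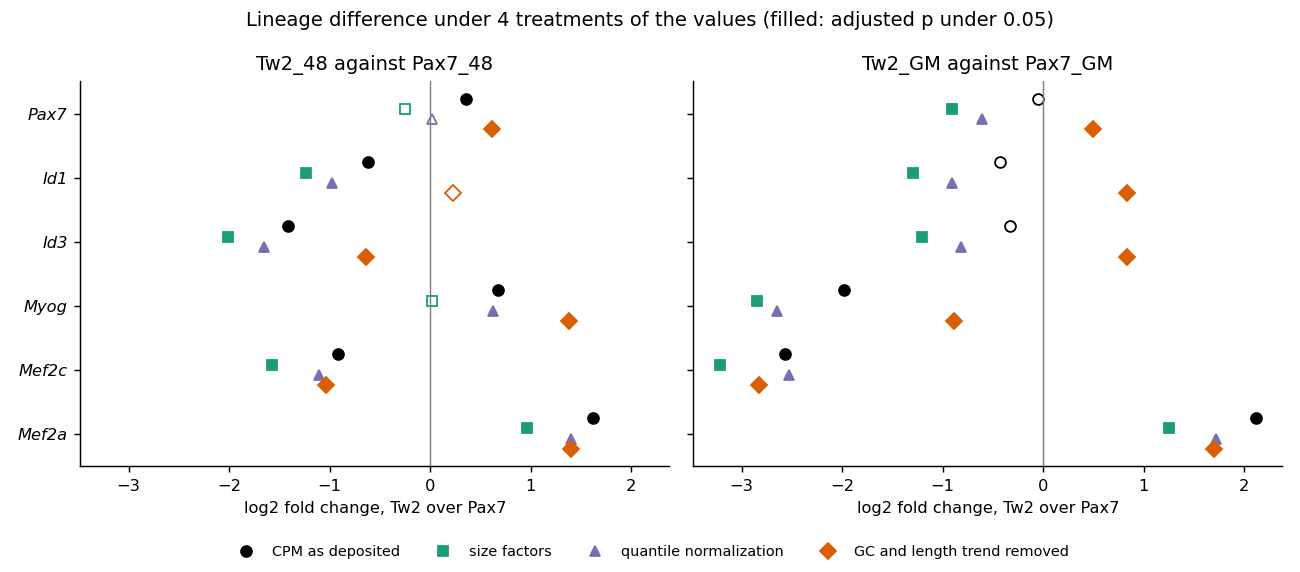
Log2 fold change of Tw2 against Pax7 for each gene in the 48 cultures (left) and in growth medium (right), as deposited and under 3 corrections of scale or GC, with filled symbols where the limma adjusted p is under 0.05. Mef2a lies above 0 and Mef2c below 0 under all 4 in both panels, while Pax7 and Id1 cross 0 in both and Id3 crosses it in growth medium.

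The partners of the myogenic factors did not move as a block. In this and the later lists, a gene counts as measured if it is in the deposited table and could be tested. Genes that did not pass the authors' selection are absent from it, and their levels are not known. Of 7 bHLH factors and E proteins, 4 were measured, Myog and the E proteins Tcf3, Tcf4 and Tcf12. In both lineages 2 rose and 1 fell in the 48 culture: Myog and Tcf4 (1.15 in the Tw2 lineage and 1.74 in the Pax7 lineage) were higher and Tcf3 (−2.05 and −2.07) lower, while Tcf12 was at −0.12 and −0.04 and not called. For this and the next lists, the shares of all genes called in the 48 culture were 35.3% higher and 48.9% lower in the Tw2 lineage, and 38.8% higher and 40.5% lower in the Pax7 lineage. The medians of the list were 0.52 in the Tw2 lineage and 0.85 in the Pax7 lineage. In growth medium Tcf12 (1.31) and Tcf4 (1.62) were called higher in Tw2_GM than in Pax7_GM as deposited. After removal of the GC trend neither was called, with Tcf12 at 0.28 (limma adjusted p = 0.0608) and Tcf4 at −0.0013 (limma adjusted p = 0.993), and size factors ended the call of Tcf12 too (0.45, limma adjusted p = 0.0685).

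Among MEF2 factors and class IIa histone deacetylases, which repress MEF2 targets, 5 of 8 were measured. In each lineage 4 rose in the 48 culture and 1 fell (of all genes 35.3% rose in the Tw2 lineage and 38.8% in the Pax7 lineage). The list medians were 1.46 in the Tw2 lineage, which is the value of Mef2a itself, and 1.77 in the Pax7 lineage. Besides Mef2c and Mef2a, the genes that rose were Mef2d, another MEF2 factor (2.23 and 1.77), and the deacetylase Hdac5 (0.77 and 0.78). The deacetylase Hdac7 fell (−2.99 and −1.83). The fall of Hdac7 was larger in the Tw2 lineage by the test of the difference (−1.16).

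Of 12 Id and other helix-loop-helix inhibitors, 5 were measured, and 4 fell and 1 rose in the 48 culture of each lineage, against 48.9% of all genes that fell in the Tw2 lineage and 40.5% in the Pax7 lineage. Id2 followed Id1 and Id3, at −4.60 in the Tw2 lineage and −3.72 in the Pax7 lineage. Hes1, a Notch-responsive repressor, fell too (−2.87 and −2.28), and Bhlhe40 rose (1.42 and 0.96). The list medians of −4.36 and −3.72 stood against −0.49 and 0.01 over all genes. Id1 and Id3 are in this list and the Tw2 median is the value of Id1, so these medians partly restate the genes above. The changes of Id2 differed between the lineages by −0.88, which did not pass the test.

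Of 15 Pax, Pitx, Eya and related factors, which act upstream of the bHLH genes in muscle, 7 were measured, and 5 fell and 2 rose in the 48 culture of each lineage, where 48.9% of all genes fell in the Tw2 lineage and 40.5% in the Pax7 lineage. Beside Pax7, the coactivator Eya2 fell (−2.16 in the Tw2 lineage and −3.03 in the Pax7 lineage), and this change differed between the lineages (0.87). Eya4 rose (1.30 and 1.25) and Pitx3 fell (−1.60 and −1.50). Six4 fell too (−1.41 and −0.45), and further in the Tw2 lineage by the test of the difference (−0.97). With size factors neither that difference (−0.74, limma adjusted p = 0.0555) nor its fall in the Pax7 lineage (−0.21, limma adjusted p = 0.239) was called, and quantile normalization ended the call of the fall in the Pax7 lineage as well (−0.32, limma adjusted p = 0.064). The list medians were −1.41 in the Tw2 lineage and −0.85 in the Pax7 lineage.

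Bmp signalling, which drives Id genes through Smads, was covered by 14 of 26 genes. In the Tw2 lineage 3 rose and 9 fell in the 48 culture, and in the Pax7 lineage 4 rose and 8 fell, with medians of −0.82 and −0.54. Of all genes 35.3% rose and 48.9% fell in the Tw2 lineage and 38.8% rose and 40.5% fell in the Pax7 lineage, so falls were common among all genes too. The inhibitory Smads Smad7 (−3.24 and −3.26) and Smad6 (−2.40 and −2.47), which are themselves induced by this pathway, fell in both lineages. The secreted Bmp antagonists went different ways: Grem1 (−4.26 and −2.01) fell, while Chrd (4.85 and 3.48) and Nog (1.43 and 1.63) rose. Grem1 and Chrd changed further in the Tw2 lineage, with differences of −2.25 and 1.37. The difference of Chrd was not called with quantile normalization (0.66, limma adjusted p = 0.185), and Chrd stood at only 2.05 and 1.06 CPM in Tw2_GM. In growth medium the receptors Bmpr1a (2.82) and Bmpr2 (2.05) and the coreceptor Eng (2.59) were higher in Tw2_GM than in Pax7_GM. With the GC trend removed they were still called, Bmpr1a at 1.33, Bmpr2 at 0.42 and Eng at 3.40. The split of the whole list in that comparison, 6 higher and 2 lower against 48.7% and 26.0% of all genes, was 3 and 9 with size factors and 9 and 3 with the GC trend removed.

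**Figure D5:**
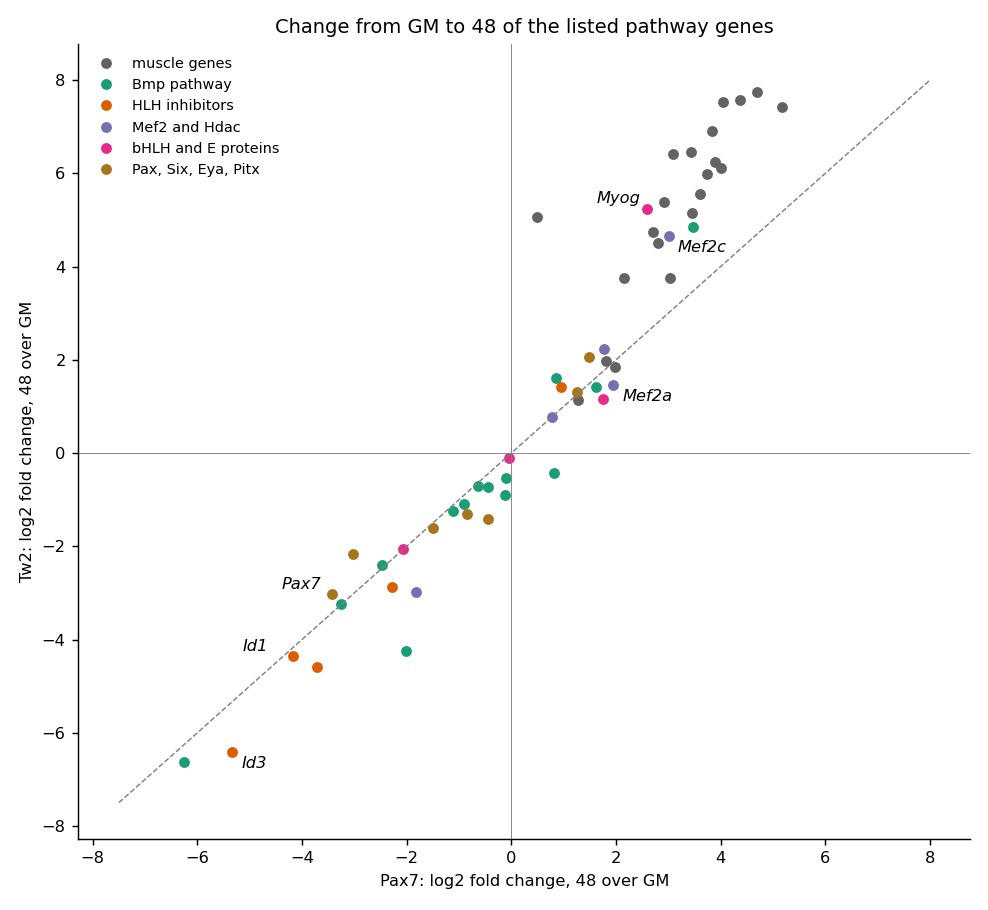
Log2 fold change between the 48 and GM cultures in the Tw2 lineage (vertical) against that in the Pax7 lineage (horizontal) for the bHLH and E proteins, MEF2 factors and deacetylases, inhibitors, Pax, Pitx and Eya factors, Bmp genes and muscle genes, with the diagonal drawn. Both axes hold log2 values from the same 8 libraries, and Myog (5.24 and 2.59) and Grem1 (−4.26 and −2.01) lie far from the diagonal.

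Muscle genes with E-box or MEF2 control rose with Myog and the MEF2 factors. Of 25 such genes 21 could be tested, and all 25 are in the deposited table, which holds genes at least 2-fold different from Tw2_GM. The list was also chosen with earlier results of these data known, so its counts here and below are descriptions. All 21 rose in Tw2_48 against Tw2_GM (median 5.56) and 20 rose in Pax7_48 against Pax7_GM (median 3.43). Of all genes 35.3% rose in the Tw2 lineage and 38.8% in the Pax7 lineage. The largest rises in the Tw2 lineage were those of the troponin Tnnc2 (7.74), the perinatal myosin Myh8 (7.57), the myosin light chain Myl4 (7.53) and the muscle creatine kinase Ckm (7.42). In the Pax7 lineage these 4 genes were at 4.69, 4.37, 4.04 and 5.18, and myoglobin, encoded by Mb, was at 0.50 and not called as deposited. For 18 of the 21 the rise was larger in the Tw2 lineage by the test of the difference, most of all for Mb (4.57), against 9.72% of all genes called higher and 9.01% lower in that test.

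The levels of these muscle genes were nearer to each other in the 48 cultures than in growth medium. Their summed level was 42726 and 43226 CPM in the Tw2_48 libraries and 3008 and 3170 CPM in those of Tw2_GM, and 48905 and 50363 CPM in the Pax7_48 libraries and 7200 and 6085 CPM in those of Pax7_GM. In growth medium 19 of 21 were lower in Tw2_GM than in Pax7_GM, with a median of −2.35, against 26.0% of all genes called lower and 48.7% higher. That count was 21 with size factors and 17 with the GC trend removed, which also gave 1 higher. Between the 48 cultures 1 was higher and 5 lower, against 43.3% and 22.1% of all genes, but 20 were lower with size factors and 10 higher with the GC trend removed, so no direction for the list held there.

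Markers of the cells that the cultures could hold moved as well. Of 10 satellite cell and myoblast markers 6 were measured, and 3 rose (Cdh15, Des and Itga7) and 3 fell (Pax7, Vcam1 and Sdc4) in the 48 culture of each lineage. Of 9 markers of differentiating myocytes 6 could be tested, as Myh3, Acta1 and Mylpf could not be resolved into libraries. All 9 are in the deposited table, and this list too was chosen with earlier results known. As a description, all 6 rose in each lineage, again against 35.3% of all genes in the Tw2 lineage and 38.8% in the Pax7 lineage. The summed level of these 6 was 11798 and 11685 CPM in the Tw2_48 libraries and 228 and 197 CPM in those of Tw2_GM. In the Pax7 lineage it was 10143 and 10513 CPM in the Pax7_48 libraries and 1042 and 870 CPM in those of Pax7_GM. Myog is itself in this list, and supplied 3697 and 3859 CPM of the sum in Tw2_48 and 110 and 89.1 CPM in Tw2_GM. It supplied 2491 and 2247 CPM in Pax7_48, and 439 and 351 CPM in Pax7_GM. The share of differentiated cells in each culture was not measured, and its part in the levels of the 6 genes was not tested.

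Markers of other cell types were sparse among the genes analysed here. None of 8 endothelial and none of 4 glial markers was among them, so their levels are not known. Of 7 pericyte and smooth muscle markers 4 were measured, with a summed level of 8731 and 8330 CPM in the Tw2_48 libraries and 660 and 699 CPM in those of Tw2_GM, and of 5252 and 5543 CPM in the Pax7_48 libraries and 811 and 709 CPM in those of Pax7_GM. Most of that sum was Acta2, with 8616 and 8229 CPM in the Tw2_48 libraries and 542 and 551 CPM in those of Tw2_GM. Of the 4 markers, Acta2 (3.94 in the Tw2 lineage and 2.89 in the Pax7 lineage) and Abcc9 (5.26 and 4.24) rose. Rgs5 (−5.47 and −3.97) and Cspg4 (−1.70 and −1.05) fell. The fibro-adipogenic markers, 2 of 8 measured, summed to 196 and 217 CPM in the Tw2_48 libraries and 991 and 942 CPM in those of Tw2_GM, and to 135 and 135 CPM in the Pax7_48 libraries and 475 and 490 CPM in those of Pax7_GM. Nearly all of that sum is Col3a1, which fell in both lineages (−2.29 and −1.94), while Col1a1 stood at 2.04 and 20.3 CPM in the Tw2_48 libraries and 3.53 and 2.39 CPM in those of Tw2_GM, and was not called in any comparison. The immune markers, 1 of 7 measured, stood at 22.8 and 18.1 CPM in the Tw2_48 libraries and at 0 in both Tw2_GM libraries, which allows up to 0.246 and 0.266 CPM. They stood at 15.9 and 11.9 CPM in the Pax7_48 libraries and 0.542 and 0.579 CPM in those of Pax7_GM. The single tenocyte marker measured of 4, Scx, was at 219 and 259 CPM in the Tw2_48 libraries and 27.5 and 32.1 CPM in those of Tw2_GM, and at 348 and 320 CPM in the Pax7_48 libraries and 110 and 91.4 CPM in those of Pax7_GM. The part of these cells in the levels of the 6 genes was not tested.

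The genes whose levels over the 8 libraries were most like those of each of the 6 are given by Pearson's r of log2(CPM + 1), as a description. For Pax7 they were Slc39a14 (0.999), Nudt5 (0.998) and Ganab (0.998), for Myog Smim5, Frmpd1 and Herc3 (0.998 each), and for Mef2a Cers6 (0.999), Rbm18 (0.998) and Armc8 (0.998). For Mef2c they were Fibin (0.997), Igdcc4 (0.996) and Igf2r (0.996), for Id1 Rcl1 (0.999), Plscr1 (0.998) and Arl4c (0.998), and for Id3 Cdca5 (0.9995), Dusp9 (0.999) and Etv4 (0.999). The points share 2 cultures and 2 lineages, and r was computed across libraries that differ in depth. Among the 6 genes themselves, Id1 and Id3 ran closest (0.997), followed by Pax7 and Id1 (0.978), Pax7 and Id3 (0.967) and Myog and Mef2c (0.949). Mef2a stood apart from the other activators, at 0.470 with Myog and 0.291 with Mef2c.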

How the data were processed

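Total RNA of 8 libraries was grouped by title. Per the submitters' processing notes, TopHat2 2.0.0, DESeq2 1.6.3 and GRCm38 (mm10) were used, with no role given, and the counting tool, annotation and strand handling are not given in the sources used here. The authors deposited the mean CPM per group, with log2 fold changes relative to Tw2_GM, for genes at least 2-fold different from it. A level of 10 CPM in 4 libraries was apparently required as well. The deposited means were resolved into the whole reads of both libraries, with 1 solution in every group for 5452 of 5457 genes. Myh3, Actc1, Mylpf, H19 and Acta1 were not tested. The solver was tested on simulated data. A count of 0 allows up to 3 reads, or 0.218 to 0.579 CPM in these libraries, which covers counting error only. Where low-level values such as those of Mef2c in Tw2_GM rest on few reads, the pseudocount of 1 makes their fold smaller.

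Tests were limma 3.58.1 (R 4.3.3) on log2(CPM + 1), fitting a mean for each group to the 8 libraries, with 4 residual degrees of freedom and Benjamini-Hochberg adjustment over 5452 genes. The spread is pooled over groups, and for the difference of changes the contrast takes the Pax7 change from the Tw2 change. GC content and length came from GENCODE M21 for 5436 genes, and promoters from RefSeq GRCm38.p6. The 6 genes and the lists were chosen with earlier results of these data known. Named genes are the 6, up to 4 called genes per list with the largest change, the genes of short lists, and the 3 most alike by Pearson's r without predicted gene models; list members past 4 were named after their values were seen. Some genes that this rule gives are not reported here. Alternatives were pseudocounts of 0.5 and 5, size factors, quantile normalization, a minimum of 10 CPM, a mean-variance trend, limma-voom on recovered reads, GC and length correction, the compared groups alone and each library left out. GC correction with the longest transcript was added after seeing the data.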

Additional observations from a re-analysis of the deposited data

Results flagged for a closer look

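Among the 6 genes, 2 changed by different amounts between the GM and 48 cultures of the 2 lineages, by the test of that difference. Of all genes 9.72% were called higher and 9.01% lower in that test. For Myog the change was 2.65 larger on the log2 scale in the Tw2 lineage than in the Pax7 lineage (5.24 in the Tw2 lineage and 2.59 in the Pax7 lineage, limma adjusted p = 0.000325), and for Mef2c it was 1.65 larger (4.66 in the Tw2 lineage and 3.01 in the Pax7 lineage, limma adjusted p = 0.0158). Both genes were lowest in the 2 Tw2_GM libraries, where the values of Mef2c rest on 26 and 28 reads. The call of Mef2c ended with a pseudocount of 5 (0.81, limma adjusted p = 0.0695) and, as given above, when some libraries were left out.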

How the results depend on the processing

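The culture changes of all 6 genes kept direction and call under every alternative in both lineages. In growth medium, all 6 genes were called under size factors, under quantile normalization and after removal of the GC and length trend, against 3 as deposited. Of all genes tested, 4332 of 5452, 4181 of 5452 and 4206 of 5431 were called in those settings, against 4072 of 5452 as deposited. Removal of the trend reversed Pax7 (0.50), Id1 (0.83) and Id3 (0.84). With the longest transcript these were 0.50, 0.84 and 0.92, and 6 genes were called too, among 4227 of 5431. In the 48 cultures Pax7 reversed with size factors (−0.25) and Id1 with the trend removed (0.22 with either transcript). For the difference of changes, a pseudocount of 5 left 1 of the 6 genes called, among 1235 of all genes. Id1 reversed with size factors (0.058). With the trend removed 1837 genes of the table were called, and 1761 with the longest transcript, against 1021 as deposited. The cause was not tested.

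With 1 library left out, the lone library is assumed to vary like the other groups. In the 48 cultures 2152 to 4218 genes were then called, against 3568, with 3 to 6 of the 6 genes, and the lowest was without the deeper Tw2_48 library. For the difference of changes 449 to 3153 genes and 1 to 5 of the 6 were called, the most without the shallower Pax7_GM library, and 1728 without the deeper one, while Id1 ran from −0.49 to 0.11. No paired analysis was possible because the group means carry no replicate numbers. Size factors rest on the listed genes alone, which were selected against Tw2_GM, and the 2 shallow Pax7_GM libraries limit every comparison with them.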
